A study of Mus musculus with 4 samples.

Results

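Carboxylesterases are serine hydrolases of the endoplasmic reticulum that cleave esters and amides of drugs, foreign compounds and lipids. In the gut wall they sit in absorptive enterocytes, where Ces2 enzymes hydrolyse ester prodrugs on first pass and also cleave acylglycerols, and several Ces1 enzymes release fatty acids from stored neutral lipid. Aadac, arylacetamide deacetylase, is a membrane-bound hydrolase of the same compartment that acts on acetamides and on lipid esters. The genes described are Ces1d, Ces1e, Ces1f, Ces1g, Ces2a, Ces2b, Ces2c, Ces2e, Ces2g and Aadac, which make 10 of the 14390 genes tested. They were picked by family name, with the knockout and wild-type values of these arrays already known, so their differences between genotypes are given as a description and support no claim. All 10 had a probe, 13 probes in all, and all 13 probes were well above background on all 4 arrays.

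RNA came from small intestine of wild-type mice (wild type 1 and 2) and of Cyp3a-/- mice (knockout 1 and 2), which lack the gene cluster of the drug-oxidising Cyp3a cytochromes P450. Each genotype had 2 arrays, from different animals by the series' design text. Strain, age, sex, diet, the part of the intestine and whether an array held RNA of more than 1 animal are not given in the sources used here, so any p-value measures only the spread between these arrays. Where values of a pair of arrays are given, array 1 comes first. Each RNA was labelled with Cy3 and read on a 1-colour Agilent array. A level below is the log2 signal of a probe minus the 75th percentile of its array, and differences are knockout minus wild type on that log2 scale. Levels of different probes are not compared with each other, since probes differ in how brightly they report a transcript.

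The 75th percentile of signal lay between 175 and 356, between 55.1% and 64.4% of probes were well above background, and no spot was saturated. The deletion was visible in the transcripts: Cyp3a11 stood at 5.05 and 5.78 in the wild-type pair and at -5.77 and -4.52 in the knockout pair. Wild type 2 and knockout 1 shared a slide and its scan, while the other arrays were each alone on a slide. Knockout 1 stood apart from knockout 2, with a correlation across genes of 0.948, against 0.979 between the wild-type arrays. It also stood apart from wild type 1 and 2, at 0.966 and 0.962. Knockout 2 correlated with them at 0.981 and 0.980, so knockout 1 was the array least like the others. Results that rest on either knockout array are therefore given for each of them. With 2 arrays per genotype, their number limits the precision of every value.

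The Ces1 genes and the Ces2 genes each lie as neighbours on chromosome 8, and Aadac lies on chromosome 3. Of the 10 genes, 7 had a promoter in the RefSeq sequence table of assembly GRCm38.p6. Promoters of 3 Ces2 neighbours are shown because Ces2a is the member with the largest difference, Ces2c followed it on only 1 of its 3 probes, and Ces2e had the smallest range of these 3 over the arrays. Each is the plus strand, 5′ to 3′, and covers the 250 bases before the gene's start, at chr8:104733753-104734002 for Ces2a, chr8:104846818-104847067 for Ces2c and chr8:104926010-104926259 for Ces2e. Capitals mark AGGTCA, a half-site bound by many nuclear receptors, and CAAAGT (here as its reverse complement), letters found in many sites of the enterocyte regulator HNF4A.
Ces2a: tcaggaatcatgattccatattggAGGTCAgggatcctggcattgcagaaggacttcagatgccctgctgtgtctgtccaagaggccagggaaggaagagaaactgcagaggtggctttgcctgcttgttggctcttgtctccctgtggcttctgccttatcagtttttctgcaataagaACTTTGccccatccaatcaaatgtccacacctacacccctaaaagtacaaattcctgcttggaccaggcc
Ces2c: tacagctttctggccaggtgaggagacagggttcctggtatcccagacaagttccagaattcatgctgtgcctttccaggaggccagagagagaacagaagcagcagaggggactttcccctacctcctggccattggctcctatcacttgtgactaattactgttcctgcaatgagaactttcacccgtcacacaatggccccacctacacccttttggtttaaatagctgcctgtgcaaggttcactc
Ces2e: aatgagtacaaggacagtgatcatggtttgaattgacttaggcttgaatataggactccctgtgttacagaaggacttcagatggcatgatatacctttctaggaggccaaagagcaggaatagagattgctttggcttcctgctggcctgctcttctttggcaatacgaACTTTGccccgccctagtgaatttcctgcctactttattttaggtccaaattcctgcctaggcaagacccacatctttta

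In global alignment, 66.4% of the 250 bases were identical between the Ces2a promoter and that of Ces2c and 60.4% between Ces2a and Ces2e. Among the 21 pairs of the 7 promoters the 6 pairs of Ces2 genes ranged from 58% to 66.4%, and the other pairs from 50.4% to 55.6%. Ces2a and Ces2e shared the 17-base run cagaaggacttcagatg, which 2 of the 32851 promoters in the table hold. On both strands, CAAAGT was found in the Ces2a, Ces2e and Ces2g promoters and in 12.6% of all promoters, a search added after the sequences were read. AGGTCA was found in 1 of the 7, that of Ces2a, and in 14.0% of all promoters. TTTATG, the core letters bound by the intestinal factor CDX2, was found in the promoters of Ces1e, Ces1g and Ces2g and in 10.8% of all. TATAAA was found in that of Ces1g and in 12.4% of all. In Ces1g it lay on the strand opposite to the gene, between 26 and 21 bases before the start. The gene's own strand reads TTTATA there. AGTTCA and GTTAAT were in none of the 7 windows and in 11.8% and 6.43% of all promoters. A match of letters describes the sequence and is no evidence of binding.

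Ces2a, a major intestinal carboxylesterase, was the member whose knockout arrays both stood well above wild type, on its only probe. It stood at 6.22 on both wild-type arrays, at 8.61 in knockout 1 and at 7.39 in knockout 2. As background-subtracted signal before scaling, these were 16782, 26487, 125730 and 29345. The genotypes did not overlap, and the scaled signal was 5.24-fold the wild-type mean in knockout 1 and 2.25-fold in knockout 2. The mean difference was 1.78 (SE 0.49, n = 2 per genotype), a 3.43-fold higher signal, and 6 of the 14390 genes tested, 0.0417%, had a larger positive difference. Within the slide that held both genotypes, knockout 1 lay 2.39 above wild type 2. The difference was 1.17 without knockout 1 and 2.39 without knockout 2, and 1.78 without wild type 1 or 2.

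**Figure D1:**
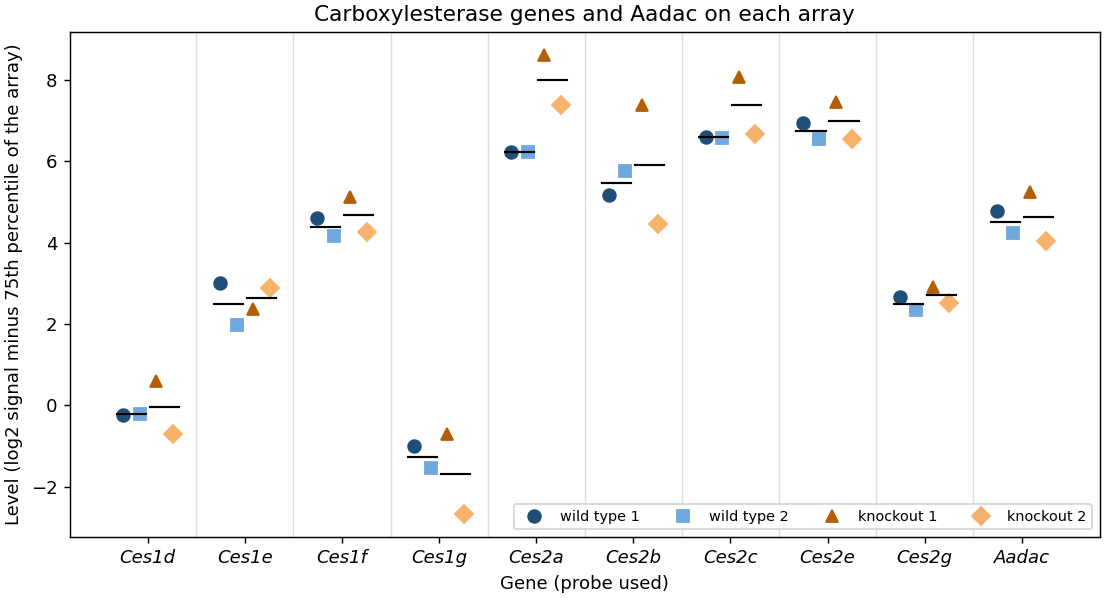
Level of each gene on its brightest probe (y axis, log2 signal minus the 75th percentile of the array) for the 10 genes (x axis). Points are single arrays and black lines are means of 2 arrays per genotype; with this scaling, only Ces2a and, by a small margin in knockout 2, Ces2c have both knockout arrays above both wild-type arrays.

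Ces2b lies between Ces2a and Ces2c on the chromosome, and Ces2b and Ces2c were high in knockout 1 alone on most of their probes. Ces2b stood at 5.16 and 5.76 in the wild-type pair and at 7.38 and 4.45 in the knockout pair. Knockout 1 was thus the highest and knockout 2 the lowest of the 4 arrays, 1.92 above and 1.01 below the wild-type mean. The mean difference of 0.46 (SE 0.90) was smaller than the spread of the knockout arrays (SD 2.07, n = 2). Without knockout 1 the Ces2b difference was -1.01, without knockout 2 it was 1.92, and within the shared slide it was 1.62.

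Ces2c encodes a hydrolase of drugs and acylglycerols in the gut wall, and its 3 probes did not agree in knockout 2. On the brightest probe it stood at 6.61 and 6.56 in the wild-type pair and at 8.08 and 6.67 in the knockout pair. Both knockout arrays were above wild type there, knockout 2 by only 0.09 over the wild-type mean (difference 0.79, SE 0.53). On the second probe the levels were 5.64, 6.27, 7.67 and 5.02 in the same order, and on the third 4.44, 5.17, 6.54 and 3.81. Both of these put knockout 2 below both wild-type arrays, by 0.94 and 1.00 from the wild-type mean, while all 3 probes put knockout 1 above it, by 1.5 to 1.73. The mean differences on these probes were 0.39 and 0.37. The 2 dimmer Ces2c probes and the Ces2b probe had the same order of the 4 arrays, and the brightest Ces2c probe did not. Probe sequences were not used here, so which of these close paralogs a probe can bind was not tested.

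**Figure D2:**
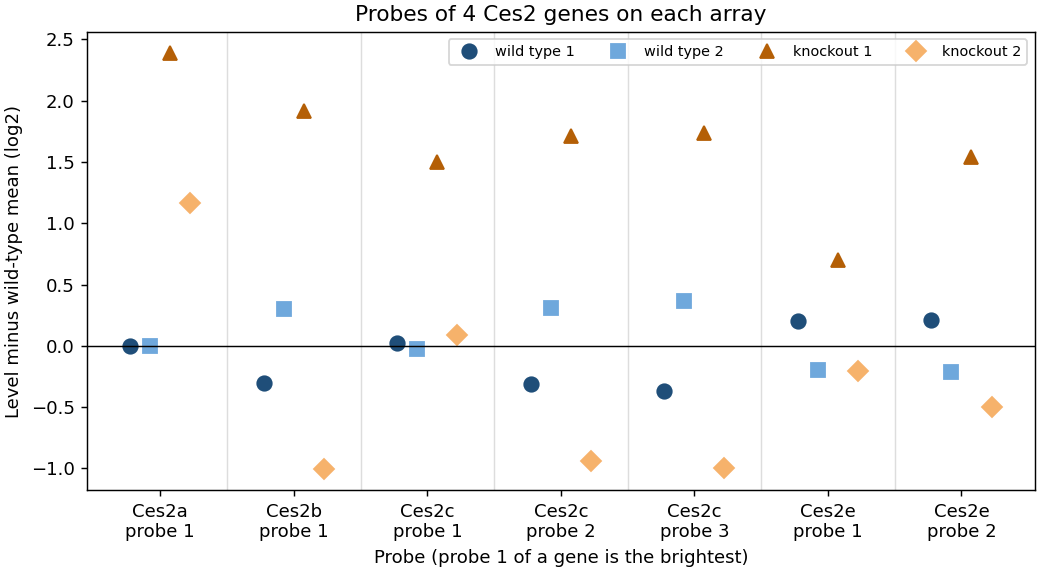
Level minus the wild-type mean (y axis, log2) for 7 probes of Ces2a, Ces2b, Ces2c and Ces2e (x axis); points are single arrays. Knockout 1 is highest on all 7 probes, while knockout 2 is above both wild-type arrays on the Ces2a probe and on the brightest Ces2c probe, and below them on the other 5.

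Ces2e and Ces2g varied less. Ces2e, a neutral lipid hydrolase, stood at 6.95 and 6.54 in the wild-type pair and at 7.45 and 6.54 in the knockout pair, a difference of 0.25 (SE 0.44). Knockout 1 was above both wild-type arrays, and knockout 2 lay at the level of wild type 2. A much dimmer second Ces2e probe had levels of -2.21, -2.64, -0.88 and -2.92 in the same order, with knockout 1 higher by 1.54 where the brighter probe gave 0.70. Ces2g stood at 2.65 and 2.35 in the wild-type pair and at 2.91 and 2.51 in the knockout pair (difference 0.21, SE 0.29). Its range over the 4 arrays, 0.56, was the smallest of the 10 genes.

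The Ces1 genes did not separate by genotype. Ces1d, known as a triacylglycerol hydrolase of liver and fat, stood at -0.23 and -0.21 in the wild-type pair and at 0.60 and -0.71 in the knockout pair. The knockout arrays lay on opposite sides of wild type, and the difference was 0.17 (SE 0.46). Ces1f, a related lipid hydrolase, had levels of 4.61, 4.16, 5.12 and 4.25 in that order (difference 0.30, SE 0.40), with only knockout 1 above both wild-type arrays.

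Ces1e and Ces1g each showed an order of arrays of their own. Ces1e, or egasyn, holds beta-glucuronidase in the endoplasmic reticulum. It stood at 3.0 and 1.98 in the wild-type pair and at 2.36 and 2.89 in the knockout pair, and it was the only member not above both wild-type arrays in knockout 1. The arrays of the shared slide held its 2 lowest levels, and its wild-type arrays, 1.01 apart, differed more than those of any other member. Ces1g, a lipid-hydrolysing esterase, stood at -1.01 and -1.54 in the wild-type pair and at -0.72 and -2.67 in the knockout pair. Its difference of -0.42 (SE 0.65) was the only negative mean among the 10 and was set by knockout 2, 1.39 below the wild-type mean, since knockout 1 lay 0.56 above it.

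Aadac stood at 4.78 and 4.25 in the wild-type pair and at 5.23 and 4.04 in the knockout pair. Knockout 1 was the highest array and knockout 2 the lowest, and the difference was 0.12 (SE 0.47). Within the shared slide it was 0.99.

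Over all 10 genes, limma's fit across all genes called 0 after Benjamini-Hochberg adjustment at 0.05, where it called 6 of 14390, or 0.0417%, all of them Cyp3a genes that were lower. At an unadjusted p under 0.05 there was 1 member, Ces2a, against 0.438% of all genes. Its unadjusted limma p was 0.010 in this fit, 0.082 with the authors' value table and 0.253 with normexp background correction. It was under 0.05 in the other settings fitted on all 4 arrays. For 2 of 10 members, Ces2a and Ces2c, the lower knockout array exceeded the higher wild-type array, as it did for 8.64% of all genes. The reverse held for 0 of 10, against 6.09%. Knockout 1 alone was above both wild-type arrays for 9 of 10 members, where 37.8% of all genes were. Knockout 2 was below both for 5 of 10, where 26.6% of all genes were, and above both for 2 of 10, where 33.6% were. The genotype comparison was known when the genes were picked, so nothing is read from these counts. Without knockout 2 the fit called 2 members higher, Ces2a (limma's adjusted p = 0.0237) and Ces2b (0.046), where 0.931% of all genes were called higher and 2.99% in either direction. That fit takes the residual spread from the wild-type arrays, moderated by that of other genes, and assumes that the lone knockout array varies likewise. Without knockout 1 it called 0 members, against 0.0834% of all genes in either direction.

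The median difference of the 10 genes was 0.23, beside 0.04 over all genes. It was -0.17 without knockout 1, where 4 of the 10 genes had a positive difference in place of 9. Normexp background correction gave -0.25, but its fit failed on knockout 2, and without the 6 spots at fault there the median was 0.21, with 9 genes positive. Scaling to enterocyte markers shifts all genes by the same amount and gave 0.02, beside -0.17 over all genes. Relative to the wild-type mean, the members' median was 0.73 in knockout 1 and -0.17 in knockout 2, against 0.03 and 0.04 over all genes. Within the shared slide it was 0.93, against 0.08. The knockout arrays differed from each other by a median of 1.2 over the members and 0.45 over all genes, and the wild-type arrays by 0.43 and 0.30. Most members differed more between the knockout arrays than between the genotype means. Single arrays tend to differ more than means do, and the share of all genes was not counted, so nothing is read from this.

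The tissue label was checked with markers of cell types that a piece of small intestine can hold. All 8 markers of absorptive enterocytes were well above background on all arrays, and their signal summed over the list was 876 and 541 times the 75th percentile in wild type 1 and 2 and 1046 and 649 times in knockout 1 and 2. Set against the wild-type mean, the marker median was 0.96 in knockout 1 and -0.10 in knockout 2, with Vil1, a microvillus protein, at 0.93 and -0.35 and the fatty acid binding protein gene Fabp2 at 0.25 and 0.02. In bulk tissue, fewer cells of a type and less RNA per cell cannot be told apart. Goblet cell markers had medians of 0.93 and -0.04 in knockout 1 and 2, with 5 of 6 above the wild-type mean in knockout 1, and proximal small intestine markers had 0.63 and -0.35. Distal small intestine markers, 3 of them tested, had 0.94 and 0.56. Paneth cell markers went the other way, with -0.12 and 0.25, and 1 of 4 was above the wild-type mean in knockout 1. The members were thus high in knockout 1 together with markers of more than 1 epithelial list, though not with those of Paneth cells.

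Levels were also scaled to the median of the 8 enterocyte markers, a choice made after the data were seen. The median level of the markers on an array, set against its own wild-type mean, was 0.32 and -0.32 in the wild-type pair and 0.78 and -0.37 in the knockout pair. On this scale Aadac ranged over only 0.15 across the 4 arrays, where it had ranged over 1.19. Its difference was then -0.08, beside a median of -0.17 over all genes on this scale. The range of Ces2e went from 0.91 to 0.29 and that of Ces1f from 0.96 to 0.33. In all, 8 of the 10 genes had a smaller range. The median range of all genes went from 0.66 to 1.33, a rise that the scaling itself produces. It subtracts the same marker values from every gene. A gene that was level across the arrays is thus widened, and a gene that moved with the markers by a similar amount is narrowed.

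Ces2a stayed apart from wild type on this scale in both knockout arrays alike. It stood at 1.61 and 1.54 above its wild-type mean in knockout 1 and 2, with -0.32 and 0.32 in wild type 1 and 2. Its difference was then 1.57, and the genotypes did not overlap, with knockout higher, as for 0.848% of all genes on this scale. That share was 8.64% before this scaling, which makes a gene that was level across the arrays overlap by construction. The smaller share is therefore no measure of how rare the separation is. Ces2c on its brightest probe stood at 0.72 and 0.46 in knockout 1 and 2, with -0.30 and 0.30 in wild type, also without overlap. Its dimmer probes were not put on this scale, and before it both had knockout 2 below both wild-type arrays. Ces2b still had its knockout arrays on opposite sides, at 1.14 and -0.63. Ces1e and Ces2g had larger ranges than before, 1.68 and 0.75, and Ces1g stood at -0.22 and -1.02 in knockout 1 and 2. Ces1g and, by a small margin, Aadac had both knockout arrays below both wild-type arrays on this scale. The share of all genes in that direction was not counted. The median difference over all genes was itself -0.17 on this scale, so nothing is read from this.

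**Figure D3:**
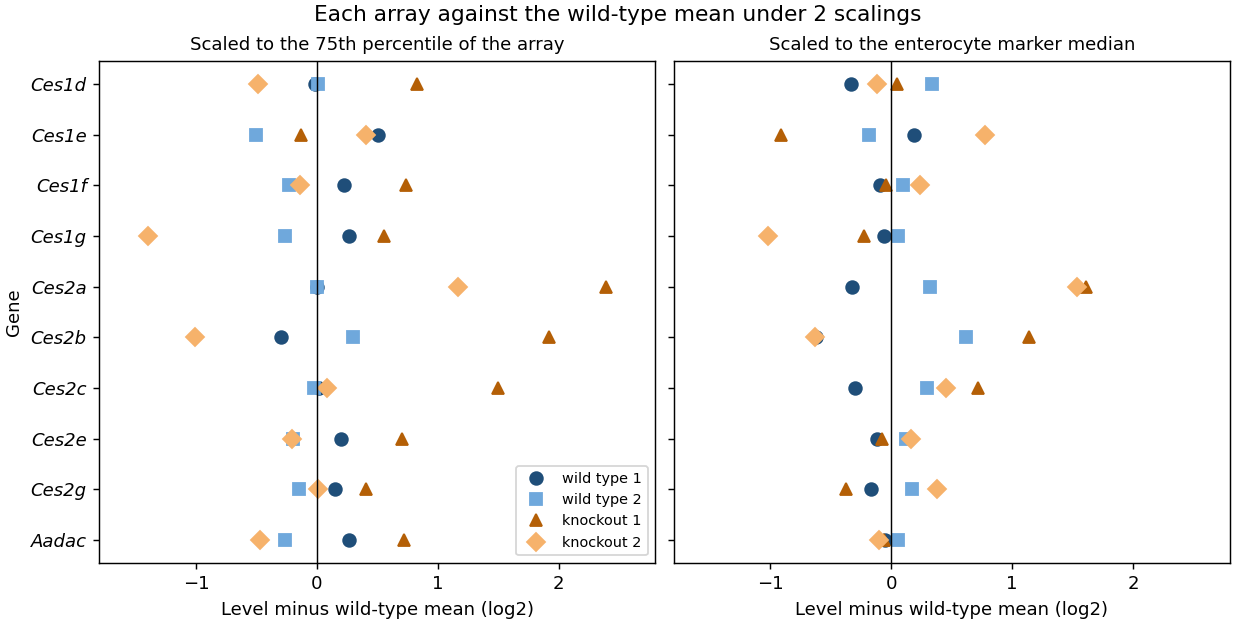
Level minus the wild-type mean (x axis, log2) for the 10 genes (y axis), scaled to the 75th percentile of each array (left) or to the median of 8 enterocyte markers (right); points are single arrays. The points of Aadac, Ces2e and Ces1f draw together on the right, and both knockout points of Ces2a stay above wild type, at 1.61 and 1.54.

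Markers of other cell types moved too, and their part in the members' values was not tested. Of 10 hepatocyte markers, 9 were well above background in wild type 1, 5 in wild type 2, 4 in knockout 1 and 6 in knockout 2, and their summed signal was 8.29 times the 75th percentile in wild type 1 and between 2.62 and 3.53 in the other arrays. Alb, serum albumin, had levels of 1.33 in wild type 1, -5.50 in wild type 2, -5.56 in knockout 1 and -2.60 in knockout 2, and Apoh, another plasma protein of liver, -2.26, -4.54, -4.75 and -5.28. Fga was the only hepatocyte marker nowhere well above background. Of 6 adipocyte markers, Plin1 and Lep were nowhere well above background. The summed adipocyte signal was 0.931 and 0.953 in wild type, 0.220 in knockout 1 and 3.24 in knockout 2. Adipoq, the adipokine adiponectin, was well above background on 2 arrays and Cfd on 3, neither of them in knockout 1, and both had their highest level in knockout 2, at -2.24 and 0.91. Alb and Apoh were each well above background on 2 arrays, so their lower levels are background values too. Ces1d, known from fat tissue, had the opposite order, with knockout 1 highest and knockout 2 lowest. Smooth muscle markers had medians of -0.94 and 0.68 in knockout 1 and 2. Of 6 pancreatic acinar markers, 5 were nowhere well above background.

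Of 11 other carboxylesterase genes, 9 had a probe and 1, Ces3a, could be tested. Ces3a, mainly a liver esterase, stood at -0.63 and -2.10 in the wild-type pair and at -0.74 and -1.78 in the knockout pair (difference 0.10, SE 0.59). Its genotypes overlapped. Ces1c, which encodes a carboxylesterase secreted into plasma by liver, was well above background only in wild type 1, the array with the highest hepatocyte marker sum. Its level there was -3.37. The probes of Ces1a, Ces1b, Ces2f, Ces2h, Ces3b, Ces4a and Ces5a were on no array well above background, and Ces1h and Ces2d-ps matched no probe.

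The following lists were fixed with earlier results of these arrays known and are described by count and median. None of their genes was called in either direction by limma after adjustment, against 0.0417% of all genes. Of 13 other ester and amide hydrolases, 9 had a positive difference, and their median stood at 0.37 in knockout 1 and -0.14 in knockout 2. Nceh1, a cholesteryl ester hydrolase, was at 0.85 and -0.25 in knockout 1 and 2. Cmbl, which activates the prodrug olmesartan medoxomil, was at 1.07 and -0.25. Bphl, a valacyclovir-cleaving hydrolase, was at -0.14 and 0.08, and Pon2, a lactonase, at 0.02 and 0.13. Nceh1 and Cmbl were thus highest in knockout 1, as Aadac was, and the other pair varied little.

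Genes that hydrolyse and rebuild neutral lipid, the lipid work that several Ces enzymes share, also differed between the knockout arrays. Of 11 genes of neutral lipid hydrolysis, 6 were positive, with medians of 0.40 and -0.47 in knockout 1 and 2. Pnpla2, the lipase that opens triacylglycerol breakdown, was at 0.29 and -0.52, hormone-sensitive lipase Lipe at 0.67 and -0.67 and lysosomal lipase Lipa at 0.37 and -0.50. Monoacylglycerol lipase Mgll had the opposite order, at -0.86 and 0.34. Of 11 genes of acylglycerol and cholesteryl ester synthesis, 9 were positive, with medians of 0.79 and -0.37. Mogat2, which re-esterifies absorbed monoacylglycerol, was at 0.86 and -0.39, and the last-step enzymes Dgat1 and Dgat2 were at 0.79 and -0.41 and at 0.78 and -1.34. Soat2, which esterifies cholesterol, was at 1.46 and -0.08.

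Among the receptors that sense foreign compounds and the regulators of enterocytes, 12 of 13 were positive, where 56.2% of all genes were, and 3 (Ppara, Nfe2l2 and Ahr, named after their values were seen) had no overlap of genotypes with knockout higher, where 8.64% of all genes had none. For Nfe2l2 and Ahr the margin was small. In knockout 2, Nfe2l2 stood at 2.82 against 2.79 in wild type 1, and Ahr at -0.011 against -0.019 in wild type 2. The list had medians of 0.67 and -0.06 in knockout 1 and 2. Nr1i2, the receptor PXR, stood at 0.89 and 0.57 in the wild-type pair and at 1.93 and 0.75 in the knockout pair. Nr1i3, the receptor CAR, was at 0.68 and -0.30 relative to wild type, its partner Rxra at 0.02 and -0.22 and Hnf4a at 0.67 and -0.09. In knockout 2 the Nr1i2 transcript was 0.02 above its wild-type mean. Receptor activity was not measured, and a link between these receptors and the members was not tested.

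Of 17 tested targets of PXR and CAR outside the members, all had positive differences, against 56.2% of all genes, and 6 had both knockout arrays above wild type, against 8.64%. These genes too were picked with their values known. Their medians were 1.62 and 0.07 in knockout 1 and 2. Cyp2b10, a P450 induced through CAR, was at 1.54 and 0.32, Cyp2c55 at 3.92 and 0.29, the efflux pump gene Abcb1a at 2.08 and 0.28, and Cyp2c29 at 1.74 and -0.31. Ces2a, at 2.39 and 1.17, was higher in knockout 2 than any of these 4, and whether PXR or CAR acted on it was not tested.

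Carboxylesterases end in a signal that retains them in the endoplasmic reticulum, which KDEL receptors read. Of 10 genes for these receptors and for folding of glycoproteins there, 5 were positive, with medians of -0.07 and 0.01 in knockout 1 and 2. The receptor genes Kdelr1 and Kdelr2 were at 0.23 and -0.09 and at -0.24 and -0.29, and Kdelr3 was at -2.34 and -0.18. The chaperone gene Hspa5 was at -0.22 and 0.02. Of these 4, Kdelr3 was the only one farther from wild type in knockout 1 than the carboxylesterase median of 0.73.

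**Figure D4:**
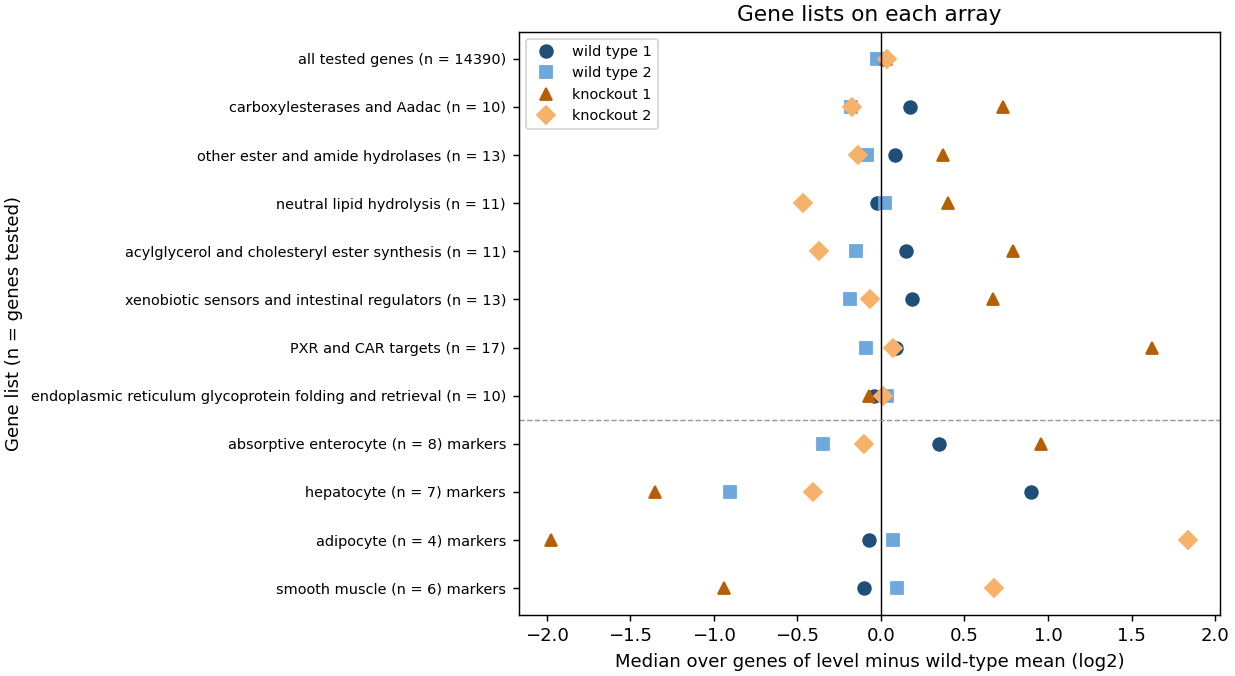
Median over the genes of each list of the level minus the wild-type mean (x axis, log2); rows are gene lists above the dashed line and cell type markers below it, points are single arrays. Knockout 1 lies to the right for the carboxylesterases and Aadac (0.73), the PXR and CAR targets (1.62) and the enterocyte markers (0.96), and to the left for smooth muscle markers and for adipocyte markers, whose knockout 1 levels include background values.

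For the 3 members of largest range, the 3 other genes with the nearest pattern were taken by root mean square distance of centred levels over the 4 arrays, a description of 4 points. Nearest to Ces2b were Hsd17b6, a steroid and retinol dehydrogenase (distance 0.049), Nat8f5 (0.093) and Trim15 (0.095), with knockout 1 from 1.74 to 2.03 above wild type and knockout 2 from 0.93 to 1.14 below. Nearest to Ces2a were the glutathione transferase genes Gstm4 (0.27) and Gstm1 (0.32) and the galactosyltransferase gene B3galt5 (0.35). All of these were higher in both knockout arrays, though in knockout 2 by only 0.42 to 0.81, where Ces2a was at 1.17. Nearest to Ces1g were Fasl (0.086), Klrd1 (0.098) and H2al1n (0.11). Fasl and Klrd1 are genes of cytotoxic lymphocytes.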

How the data were processed

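Agilent Feature Extraction 11.5.1.1 extracted the spots, according to the submitters' processing notes. The intensity deposited for each spot is, per the file headers, background-subtracted and detrended within each array and not scaled between arrays. The authors' value table holds deposited log2 values of unstated scale. Over 39408 probes they lay within 0.01 of log2 intensity minus the 75th percentile and minus each probe's own median across arrays. Their column medians were 0.05, -0.10, -0.11 and 0.12. They thus keep differences but no levels, and served as an alternative.

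Controls were dropped, as were 91 to 129 outlier-flagged spots on each array, and the mean was taken over repeated spots. Of 39429 probes, 28019 matched 1 symbol through their accession in RefSeq's table of GRCm38.p6, and 11410 matched none. The array's own header names another build, so the table gave names and gene order only, and promoters came from its companion sequence table by symbol. A probe entered if at least 2 arrays had it well above background, the brightest probe stood for a gene, and 6 genes with a flagged spot on that probe were dropped. Genotypes were compared in limma 3.58.1 under R 4.3.3 (lmFit, eBayes with an intensity trend, Benjamini-Hochberg over all genes), after a test on simulated data. SE is that of the fit.

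The members and lists were chosen with earlier results of these data known. Named genes are all members, all probed carboxylesterases, the first 4 tested genes of each list in written order, and the nearest patterns. The enterocyte, hepatocyte and adipocyte marker lists have their first 2 tested genes named, with markers nowhere well above background. Other marker lists are given as medians or counts, and the lymphocyte and macrophage lists are not described. Alternatives were other background corrections, scalings, filters, probe rules, variance settings, the authors' table, a replicate block, the shared slide, and leaving out each array.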

Additional observations from a re-analysis of the deposited data

How the results depend on the processing

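The number of genes called over the whole array was 6, 13 with normexp background correction, 0 with only probes well above background on all 4 arrays (41 at an unadjusted p under 0.05), a filter that removes the 6 deleted Cyp3a genes by construction, and 32 with the replicate number as a block. No label says what same-numbered arrays share beyond the number. Their deviations from the group means correlated at 0.05, which with 2 arrays per genotype cannot tell whether they form pairs. It was between 0 and 431 when 1 array was left out (431 without knockout 2). Members called were 0 in each of these settings, also with the replicate block (Ces2a, adjusted p = 0.0966), except for 2 without knockout 2. The members' median difference of 0.23 was 0.93 within the shared slide and from -0.17 to 0.73 when 1 array was left out. Ces2a was positive in all settings run, from 1.11 (normexp) to 2.39. The signs of the other members were not stable: normexp turned 7 of 10, leaving out knockout 1 turned 5 (Ces1d, Ces1f, Ces2b, Ces2e and Aadac), leaving out knockout 2 turned Ces1e and Ces1g, leaving out wild type 2 turned Ces1e and Aadac, and the shared slide turned Ces1g. The enterocyte scaling turned Ces1d, Ces1e and Aadac through a shift common to all genes, whose median went from 0.04 to -0.17. Normexp gave a background mean of -335 on knockout 2, where 6 spots were dimmer than their local background, against 20.4 to 23.7 on the other arrays. Without those spots, a setting added after the data were seen, it was 15.9, the members' median was 0.21, 0 signs turned and 6 genes were called. A slide term could not be fitted, and a single shared slide gave no estimate of a correlation within slides.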
